A study of Mus musculus with 5 samples.

Results

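The retinoic acid receptors (RARs), encoded in the mouse by Rara, Rarb and Rarg, and the retinoid X receptors (RXRs), encoded by Rxra, Rxrb and Rxrg, are nuclear receptors that regulate transcription as pairs of 1 RAR and 1 RXR. All probes that the array names by an accession of 1 of these genes were taken, which gave 10 probes for 6 genes among 55681 probes, of which 26300 could be matched to 19897 genes. Rara, Rarb, Rxra and Rxrg had 2 probes each and Rarg and Rxrb had 1. Gene expression had been measured in wild-type male mouse embryonic stem cells (ES) and along their differentiation into spinal motor neurons, in embryoid bodies after 8 h of retinoic acid (RA; Day2), after 1 day (Day3) and after 2 days (Day4), and in motor neurons after 5 days (Day7). The labels describe the tissue of Day7 as embryoid bodies but its source as MN, and their protocol gives RA with Shh from day 2 to day 5, whereas the study's methods name the smoothened agonist SAG in place of Shh. No group without RA at the later time points is among these samples, so time in culture and RA cannot be told apart. Each time point was 1 bulk sample on 1 Agilent one-colour (Cy3) array, so there was no spread between replicates and no test between time points. A change of at least 2-fold was used as a fixed rule of size, and the number of arrays limits the precision of every value.

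An RAR binds RA directly and sits with its RXR partner on RA response elements, short motifs in direct repeat. Without RA the pair holds a corepressor complex with histone deacetylase activity, and binding of RA exchanges it for coactivators with histone acetyltransferase activity. RXRs also pair with other nuclear receptors, such as those for thyroid hormone, vitamin D and fatty acids. In the embryo, RA from the paraxial mesoderm patterns the hindbrain and spinal cord through this system, and Rarb is itself a textbook target with an RA response element close to its start site.

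That element can be read in the promoter of Rarb, printed here because Rarb had the largest change among the probes that stand for the 6 genes (the second probe of Rxrg, described later, changed more), together with the promoter of Cyp26a1, which encodes an enzyme that breaks RA down and is another textbook target. The capitals mark the direct repeat with 5 bases between its 2 core motifs. Both sequences are the 250 bases before the start site from RefSeq on GRCm38.p6, in the direction of transcription: Rarb at chr14:16575477-16575726 on the minus strand and Cyp26a1 at chr19:37697558-37697807 on the plus strand.
Rarb: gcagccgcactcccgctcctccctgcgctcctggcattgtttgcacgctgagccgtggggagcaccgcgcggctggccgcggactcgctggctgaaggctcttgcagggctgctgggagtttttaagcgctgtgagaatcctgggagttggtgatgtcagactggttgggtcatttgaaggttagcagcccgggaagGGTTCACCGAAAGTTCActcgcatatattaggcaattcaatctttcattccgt
Cyp26a1: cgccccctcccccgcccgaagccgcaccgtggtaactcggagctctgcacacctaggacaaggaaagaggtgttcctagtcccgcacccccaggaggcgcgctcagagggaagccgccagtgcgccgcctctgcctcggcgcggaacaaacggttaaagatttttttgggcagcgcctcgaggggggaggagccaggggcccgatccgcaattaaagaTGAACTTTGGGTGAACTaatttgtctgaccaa

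The repeat of Rarb lay at positions -53 to -37, counted back from -1 as the base before the start site, and read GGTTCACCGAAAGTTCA. That of Cyp26a1 lay at positions -32 to -16 on the opposite strand, where it read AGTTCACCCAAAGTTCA. The search covered both strands of each window, from 250 bases before to 50 bases after the start, for any 2 of the core motif AGGTCA, its variant AGTTCA, the further variant GGGTCA, and the last variant GGTTCA in the same direction, with 1, 2 or 5 bases between. Of 32851 promoter windows in the table, 32 (0.0974%) held a repeat with 5 bases between, 88 (0.268%) one with 2 and 73 (0.222%) one with 1, and 43.7% held at least 1 single core motif. All 6 receptor genes had windows, 13 in all, and the 1 window of Rarb was the only 1 of the 13 with any of these repeats. Of 14 known direct targets of RA, 8 had a window and 2 of these, Rarb and Cyp26a1, held a repeat. A match is a description of the letters in a window and not evidence of binding.

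Levels are given as the log2 of the background-subtracted spot signal after quantile normalization, which gives all 5 arrays the same distribution. The signal of 1 probe can be compared between arrays but not with the signal of another probe. The error beside a level or change is the scanner software's own estimate on the log2 scale, which covers error within an array and not the spread between cultures. It was about 0.14 for a level and 0.20 for a change of a bright probe. Every receptor probe was well above background on each array, with 1 exception, the dimmer probe of Rarb in ES. In bulk RNA, fewer cells of a type and less RNA per cell cannot be told apart.

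The Day2 array stood apart from the others. It had 86.7% of its mouse probes well above background, against 57.5% to 65.7% on the other 4 arrays, and 63 of 96 ERCC probes, which match no mouse sequence, against 4 to 9. Day7 alone was on a second slide, and its slide cannot be told apart from its time. From ES to Day7 all 8 motor neuron markers (median log2 change 6.27) and 7 of 8 pan-neuronal markers (5.35) were raised at least 2-fold, when 24.8% of all genes were, and 6 of 8 pluripotency markers were lowered (-3.23), when 24.4% were. These directions were those of the labels. On the first slide the array positions in the file headers differ from those in the names of the files by the same turn of the slide for all 4 arrays, and samples were kept as labelled. The pluripotency markers gave no single order of the arrays: Pou5f1 read 12.39, 11.68, 10.01, 8.90 and 8.22 from ES to Day7, Nanog 9.20, 6.79, 8.85, 9.98 and 8.80, and Klf4 12.63, 8.66, 8.77, 9.02 and 8.996.

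**Figure D1:**
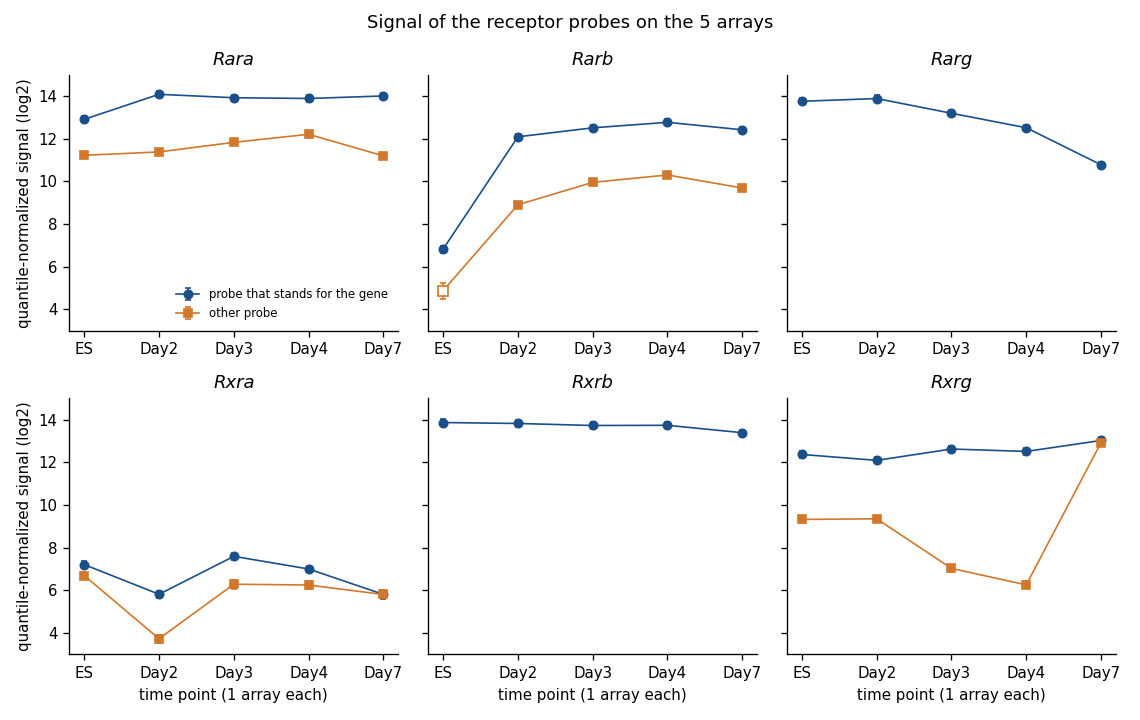
Quantile-normalized log2 signal (y axis) of every probe of the 6 receptor genes on the arrays of the 5 time points (x axis). Blue circles are the probe that stands for the gene, orange squares the other probe, bars the scanner software's error, and the open square a value not well above background. Rarb went from 6.82 in ES to 12.09 on Day2, Rarg fell to 10.78 on Day7, Rxrb lay between 13.39 and 13.87, and the 2 probes of Rxrg took different courses.

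Among the RARs, Rarb made a large and early rise. The brighter probe of Rarb, A_55_P1962154, read 6.82 in ES, 12.09 on Day2, 12.51 on Day3, 12.77 on Day4, then 12.42 on Day7. The signal in ES lay below the other 4 arrays by more than 5 log2 units, while the 4 arrays after RA lay between 12.09 and 12.77. Against ES the change was 5.27 ± 0.22 (38.5-fold) after 8 h of RA on Day2, 5.69 (51.6-fold) on Day3, 5.95 (61.7-fold) on Day4, then 5.60 (48.4-fold) on Day7. The order was ES, Day2, Day7, Day3 and Day4 from low to high, with Day7 and Day3 closer to each other (0.09) than their error of 0.20. Without normalization ES was still the lowest, but the order of the 4 later arrays was Day4, Day3, Day2 and Day7. The rise to Day2 ranked 71 among the changes of 18316 genes with a value, that to Day3 22 among 15203, that to Day4 37 among 15838 and that to Day7 246 among 15838.

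The second probe of Rarb, A_55_P2084807, took the same course at its own level. It read 4.87 in ES, where it was not well above background, then 8.90, 9.95, 10.30 and 9.69. Against ES this was at least 16.3-fold on Day2, at least 33.8-fold on Day3, at least 43.0-fold on Day4 and at least 28.2-fold on Day7. These bounds hold for the quantile-normalized values: after normexp background correction the same probe read 6.59 in ES and 9.15 on Day2, a smaller difference. In ES the brighter probe of Rarb was above background but dim, brighter than 94.8% of the ERCC probes, so the size of the rise depends on a weak starting signal. Over the alternatives of processing, the change of Rarb lay between 4.03 and 5.56 on Day2 and between 4.82 and 5.93 on Day7. Each alternative changed 1 choice, except that normexp also started from median spot signals and the deposited values also used the median signal of a probe.

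Rarg, known to mediate early responses of ES cells to RA, fell at every step from Day2 onwards. Its probe A_55_P2151056 read 13.76 in ES, 13.89 on Day2, 13.20 on Day3, 12.52 on Day4, then 10.78 on Day7. ES and Day2 differed by 0.13, within their error of 0.20, and every later array was lower than the array before it. From ES the change was -0.56 on Day3, -1.24 (2.37-fold lower) on Day4 and -2.98 (7.89-fold lower) on Day7. The largest step was the last, from Day4 to Day7, at -1.74 (3.33-fold lower). The fall to Day7 ranked 467 among the 15838 genes with a value.

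The fall of Rarg was present in every alternative that could be run, from ES to Day4 (-2.65 to -1.23) and from ES to Day7 (-3.41 to -2.91). Its 1 probe had no other to be set beside it. The probe was well above background and brighter than every ERCC probe on all arrays, so filters, flags and floors could not move it. These ranges thus come from the normalizations and the background correction. The direction of its small change from ES to Day2 was not stable, from -0.25 in the authors' deposited values to 0.13. The last step is the one across slides, and it was -0.39 without any normalization between arrays, where the median of all genes moved by 1.06 between the same arrays.

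Rara, the RAR found in most tissues, gave different answers from its 2 probes. The brighter, A_55_P2095345, read 12.91 in ES and then 14.08, 13.92, 13.89 and 14.01. ES was the low array by about 1 log2 unit, and the 4 later arrays differed from each neighbour in order by no more than 0.08, within the error of 0.20. The change from ES was 1.17 ± 0.20 (2.26-fold) on Day2, 1.01 on Day3, 0.98 on Day4, then 1.10 on Day7. The other probe, A_55_P2095342, read 11.22, 11.38, 11.83, 12.21 and 11.20. On this probe Day4 was the high array and Day7 was level with ES, with changes from ES of 0.16, 0.61, 0.99 and -0.03. Both probes carry the same accession in the array design. Under the shift to the 75th percentile the brighter probe also stayed under 2-fold at every time point, so that the 2-fold rise of Rara depends on the probe and on the scaling.

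Of the RXRs, Rxrb had the smallest range over the 5 arrays among the probes that stand for the 6 genes after quantile normalization, though not under the 75th percentile shift, where Rara and Rxrg varied less, or without normalization, where Rara and Rxra did. Its probe A_55_P2008609 read 13.87 in ES, 13.83 on Day2, 13.73 on Day3, 13.74 on Day4, then 13.39 on Day7. The first 4 arrays lay within 0.14 of each other, and Day7 lay 0.34 below the next array in order, with an error of 0.20. No change of Rxrb reached 2-fold, and the change from ES to Day7 was -0.48. The direction of this small fall held under every alternative (-1.13 to -0.43), passing 2-fold only where each array was shifted to its 75th percentile, by which the median of all genes moved by -0.35, and in the deposited table, which has the same scaling. Like Rarg, Rxrb had 1 bright probe, so no other probe could be set beside it and filters, flags and floors could not move it.

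Rxrg split between its probes more than any other receptor gene. The probe with the higher mean, A_55_P2044359, read 12.37, 12.10, 12.63, 12.52 and 13.03, a range of 0.93 over the 5 arrays, with Day7 the highest and no change of 2-fold. The other, A_51_P513311, read 9.33 in ES, 9.35 on Day2, 7.03 on Day3, 6.26 on Day4, then 12.93 on Day7. On this probe ES and Day2 did not differ beyond their error, Day3 and Day4 were low, and Day7 was the highest array by more than 3 log2 units. Its changes from ES were 0.03 on Day2, -2.30 on Day3, -3.07 (8.40-fold lower) on Day4 and 3.61 (12.2-fold higher) on Day7, and the step from Day4 to Day7 was 6.68 (102-fold). Its raw signal on Day4 was only 41.0, and the size of this step depends on the processing: the levels on Day4 and Day7 were 7.30 and 13.19 after normexp background correction, a smaller step, and 5.36 and 13.27 without normalization, a larger one. Both probes carry the same accession, and RefSeq lists 2 start sites for Rxrg, with windows at chr1:167598112-167598411 and chr1:167618015-167618314. Which transcripts either probe reads was not tested. The late rise on this probe went together with the change of slide and with the rise of the motor neuron and pan-neuronal markers, and their part in it was not tested.

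Rxra, the RXR best known as partner of the RARs in the embryo, had dim probes, and its course depended on the scaling of the Day2 array. The brighter probe, A_51_P307370, read 7.21 in ES, 5.81 on Day2, 7.59 on Day3, 7.001 on Day4, then 5.81 on Day7. Day2 and Day7 were the low arrays and differed by 0.01. The changes from ES were -1.39 ± 0.22 on Day2, 0.39 on Day3, -0.20 on Day4, then -1.40 on Day7. The other probe, A_55_P2074331, read 6.69, 3.73, 6.29, 6.25 and 5.81, with changes from ES of -2.96, -0.40, -0.44 and -0.88. On Day2 the brighter probe exceeded 85.4% and the other 62.5% of the ERCC probes, against at least 96.9% and at least 94.8% on the other arrays. Before normalization the 2 raw signals of the brighter probe in ES and on Day2 were 156 and 142, and the fall to Day2 was -0.36 under the shift to the 75th percentile. On the brighter probe, the 2-fold fall of Rxra from ES to Day2 and its return on Day3 therefore rest on how the Day2 array is scaled. The other probe fell from ES to Day2 under that shift too, from -3.07 to -4.24, and its raw signals were 106 and 55.7. The fall from ES to Day7 did not involve Day2 and lay between -1.60 and -0.88 over the alternatives.

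**Figure D2:**
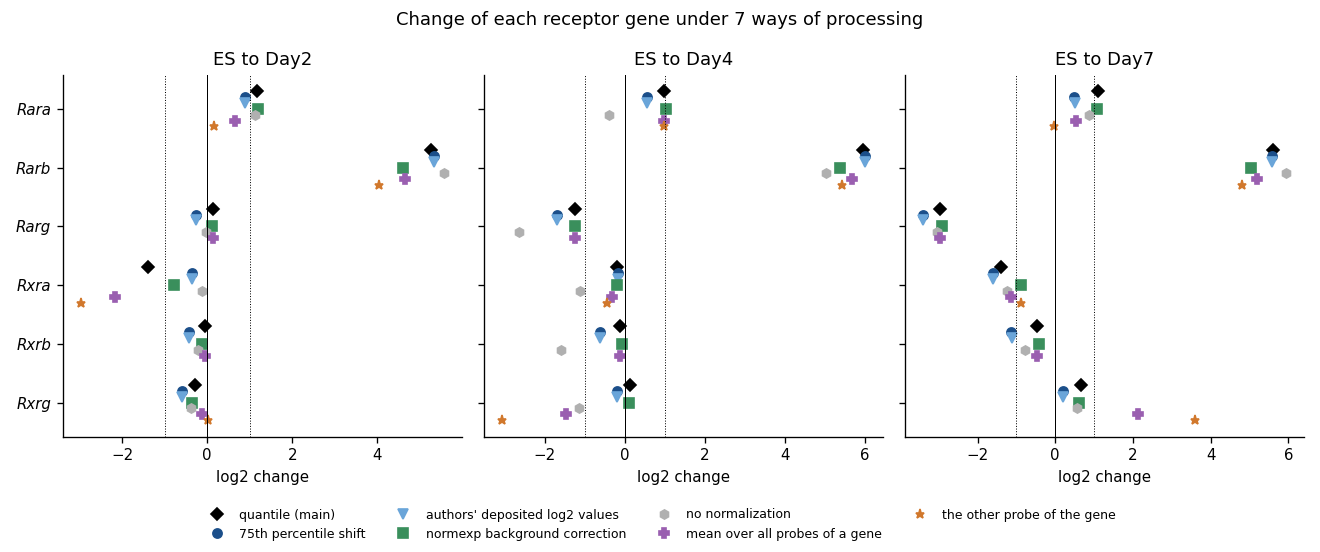
Log2 change from ES (x axis) to Day2, Day4 and Day7 of each receptor gene (y axis) under 7 ways of processing, 1 marker shape and colour each. The solid line marks no change and dotted lines 2-fold. All markers of Rarb lie above 4 and all of Rarg, which has 1 probe, lie below -1 on Day4 and Day7. Those of Rara and Rxra on Day2, Day4 and Day7, and of Rxrb and Rxrg on Day4 and Day7, lie on both sides of a 2-fold line.

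The 6 receptors were then set beside all genes, and their number allows no more than a count. From ES to Day2, 2 of 6 (Rara and Rarb) were raised at least 2-fold, when 10.7% of 18316 genes were, and 1 (Rxra) was lowered, when 11.3% were. From ES to Day3, Rara and Rarb were raised, against 15.6% of genes, and 0 were lowered, against 10.2%. On Day4, Rarb was raised, against 17% of genes, and Rarg was lowered, against 14.4%. On Day7, Rara and Rarb were raised, against 24.8%, and Rarg and Rxra were lowered, against 24.4%. From Day2 to Day3, Rxra was raised (13% of genes) and 0 were lowered (7.76%). From Day3 to Day4, 0 were raised (3.62%) and 0 were lowered (4.87%). From Day4 to Day7, 0 were raised (18.1%) and Rarg and Rxra were lowered (18.1%). The median change of the 6 genes was 0.04, 0.32, 0.01 and 0.09 from ES to Day2, Day3, Day4 and Day7, beside 0, 0.06, 0.05 and -0.07 for all genes. These comparisons share the ES array.

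Other genes of the pathway were grouped by role. Of 7 genes for retinoid synthesis, 2 were raised on Day2, when 10.7% of all genes were, and 1 was lowered, when 11.3% were, which became 0 lowered under the 75th percentile shift, normexp and no normalization. Dhrs3, which reduces retinaldehyde back to retinol and is itself induced by RA, was raised by 4.78 on Day2 and by 3.39 on Day7. Aldh1a2, the main RA-synthesising dehydrogenase of the trunk, read between 7.52 and 8.19 up to Day4 and 14.85 on Day7, a rise of 6.66 from ES. Aldh1a2 and the second probe of Rxrg were thus both at their highest on Day7, the array of the second slide.

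Of 7 genes for uptake and binding, 4 were raised on Day2 (10.7% of all genes) and 0 lowered (11.3%), and 5 of the 6 with a value were raised on Day7 (24.8%). Crabp2, which carries RA into the nucleus to the receptors, was raised by 1.54 on Day2, 4.88 on Day3, 4.28 on Day4, then 3.13 on Day7. Crabp1, which binds RA in the cytoplasm, was raised by 0.33 on Day2, under 2-fold, and by 5.38 on Day7. Of the 3 breakdown enzymes, 2 were raised on Day2 (10.7% of all genes) and 0 lowered (11.3%). Cyp26a1 was raised by 7.16 on Day2, 8.90 on Day3, 8.72 on Day4, then 1.58 on Day7. Cyp26b1 was raised by 3.22 on Day2, 5.03 on Day3 and 8.56 on Day4, its highest array, and by 4.46 on Day7. Cyp26c1 was not well above background in ES, on Day3 and on Day7, and its change from ES to Day2 was a bound of 0.23.

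Among 9 corepressor genes, the change to Day2 (median -0.48) brought 1 up (10.7% of all genes) and 1 down (11.3%) by at least 2-fold, and that to Day7 (median 0.41) brought 3 up (24.8%) and 1 down (24.4%). The sign of the median on Day2 was not stable, at 0.02 under the 75th percentile shift and 0.25 without normalization. Nrip1, a corepressor that binds the receptors in the presence of ligand and is known to be induced by RA, was raised by 2.00 on Day2, 2.64 on Day3, 2.66 on Day4, then 1.20 on Day7. Tbl1xr1, a subunit of the corepressor complex, had 2 probes. On the brighter one it was lowered by 1.53, 1.56 and 1.52 on Day2, Day3 and Day4 and read -0.11 from ES on Day7. Tbl1xr1 was the 1 corepressor gene lowered at least 2-fold on Day4, and this count became 0 when probes were averaged per gene. The counts of 1 lowered on Day2 and on Day3 did not change with that averaging. Ncor1, the corepressor best known for RARs, lay within 0.57 of its ES level on every array on the brighter of its 2 probes. Among 10 coactivator genes no change to Day2 reached 2-fold (median -0.19), and 3 genes were raised on Day7 (median 0.18), namely Crebbp (1.29) and Ncoa2 (1.18), both coactivators of nuclear receptors, and Ncoa6 (1.05), against 24.8% of all genes. Under the 75th percentile shift 1 coactivator gene was raised on Day7 and 1 lowered (median -0.06).

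Of the 13 genes for other partners of RXR, 2 were raised on Day2 (10.7% of all genes) and 1 was lowered (11.3%), and among the 9 with a value on Day7 4 were raised (24.8%) and 3 lowered (24.4%). The 2 raised on Day2 became 6 without normalization and where each array was shifted to its 75th percentile, as in the deposited table. Thra, the thyroid hormone receptor of the nervous system, was raised by 2.23 on Day7, and the orphan receptor Nr4a2 by 3.49. Nr4a1, a relative of Nr4a2, was lowered by 3.14. Vdr, the vitamin D receptor, read 10.94 on the Day2 array, at least 6.20 above ES, and 5.69 on Day3.

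**Figure D3:**
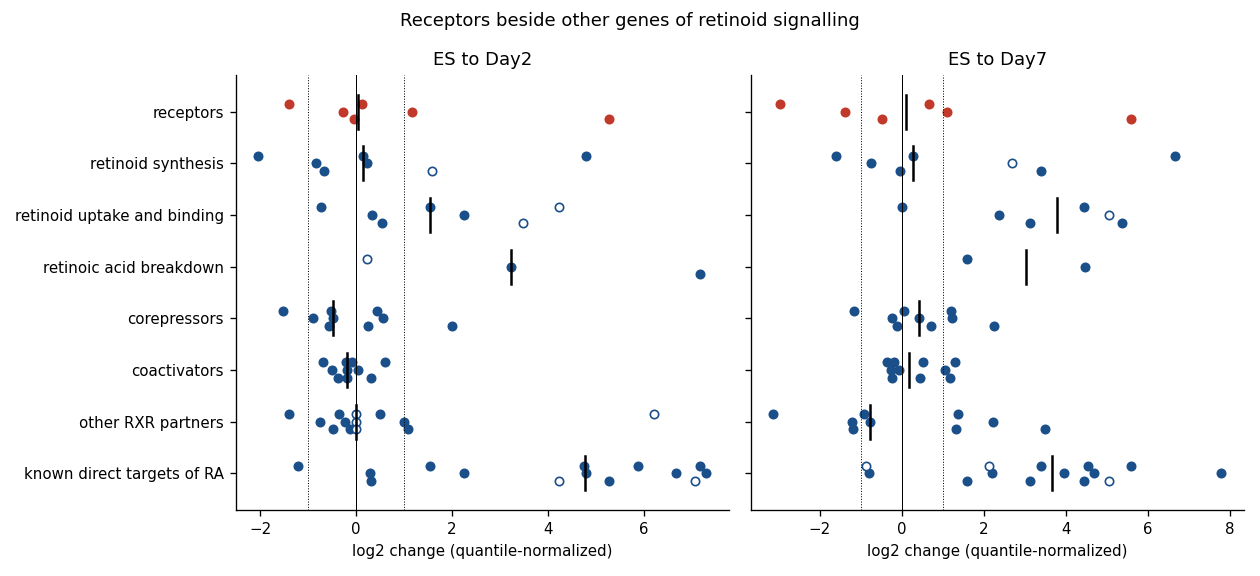
Log2 change from ES to Day2 and to Day7 (x axis) of the receptors (red) and of 7 lists of other genes of retinoid signalling (blue), 1 point a gene. Open points are bounds against a probe not well above background or, at 0, genes whose brighter side did not exceed the floor of the other array, black bars list medians, and dotted lines 2-fold. The medians of the receptors are 0.04 and 0.09 and those of the known direct targets 4.77 and 3.67.

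Of the 14 known direct targets of RA, Rarb among them, 11 were raised at least 2-fold from ES to Day2 (10.7% of all genes) and 1 lowered (11.3%), with a median of 4.77, and 14 of 14 were raised on Day3 (15.6%), with a median of 5.70. This list was assembled from textbook targets with earlier results of these data known, so its direction is a description. On Day4, 13 were raised (17% of all genes; median 5.93), and on Day7 12 were (24.8%; median 3.67). From Day4 to Day7, 9 of the 14 were lowered at least 2-fold and 1 was raised (median -2.07), when 18.1% of all genes were lowered. Over the alternatives of processing 7 to 11 were lowered and 0 to 2 raised, with medians from -2.53 to -0.85. In the main setting Rarb was among the targets under 2-fold, at -0.35, as were Hoxb4 at -0.03 and Tgm2 at -0.65. Cyp26a1 fell by 7.14 over the same step, Hoxb1 by 5.05, Stra8 by 3.41 and Cdx1 by 3.19. Of the 2 promoters printed above, that of Rarb thus belonged to a gene 5.60 above ES on Day7 and that of Cyp26a1 to a gene 1.58 above it.

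The genes whose course over the 5 arrays was most like that of each receptor were found by centring each gene on its own mean and taking the root mean square difference on the log2 scale, among 13467 genes well above background on all 5 arrays. For Rarb these were Hoxb3 (0.34), Meis2 (0.41), Hoxa3 (0.46), Zfp703 (0.56) and Hoxb4 (0.77). Hoxb3, Hoxa3 and Hoxb4 are Hox genes of the hindbrain and upper spinal cord, and Meis2 encodes a cofactor of Hox proteins. For Rarg the most alike were Mtfp1 (0.08), Zfp42 (0.09), Tom1l1 (0.10), Trim6 (0.11) and Hhex (0.11). Zfp42, also called Rex1, is a marker of undifferentiated ES cells, and its change from ES to Day7 was -2.82 beside -2.98 for Rarg. Nanog, another such marker, read -0.40 over the same comparison. Rarb had no match closer than 0.34.

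**Figure D4:**
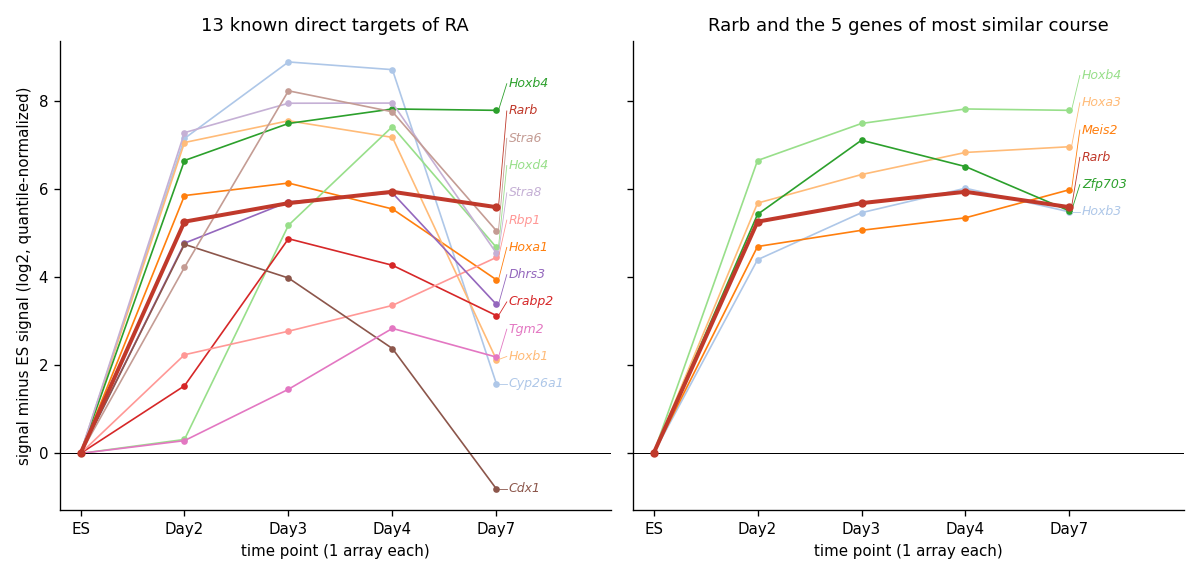
Log2 signal minus the ES signal (y axis) on the 5 arrays (x axis) for 13 known direct targets of RA (left) and for Rarb with the 5 genes of most similar course (right). Rarb is the thick red line, and a value not well above background is set at the floor of its array. Rarb stays between 5.27 and 5.95 after ES, while Cyp26a1 falls from 8.72 on Day4 to 1.58 on Day7.

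For the remaining receptors, Slc30a4 was the gene closest to Rara (0.08), Rpl3l to Rxra (0.08), Lsm7 to Rxrb (0.03) and Atxn10 to the brighter probe of Rxrg (0.02). The match of Rxra includes low Day2 values of both genes (5.81 for Rxra and 5.24 for Rpl3l), and that of Rxra rests on the scaling of the Day2 array. No receptor was among the 5 genes closest to another receptor. The nearest pair, Rxrb and Rxrg, differed by 0.46, and the farthest pair, Rarb and Rarg, by 2.94. Even in the nearest pair, Rxrg ranked 6247 in likeness to Rxrb and Rxrb ranked 4692 in likeness to Rxrg, among 13467 genes.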

How the data were processed

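Total RNA of 5 samples, 1 per time point, was labelled with Cy3 and hybridized to Agilent mouse gene expression arrays. Samples were assigned to time points from their labels. The authors deposited the scanner output, which gives the intensity of each spot after background subtraction and detrending in Agilent Feature Extraction 10.5.1 (per the submitters' processing notes), without normalization between arrays. The authors also deposited a table of log2 values, which equals the log2 median signal of a probe minus the 75th percentile of its array within 0.01 for at least 99.3% of probes. This table was used as an alternative, because a legend of the study names quantile analysis. The build of the array design differs from that of the RefSeq tables, so GRCm38.p6 was used for names and promoters only.

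Spots that were controls or outliers were left out and the log2 intensity was averaged per probe and quantile-normalized (limma 3.58.1, R 4.3.3). Further steps used Python 3.11.15, numpy 2.4.6, pandas 2.3.3 and matplotlib 3.10.9, and were tested on simulated data. Of 55681 probes, 26300 matched 19897 gene symbols through their accession. A gene with several probes was represented by that of highest mean signal over the 5 arrays. A dim probe, not well above background, was raised to a floor, the lowest signal of any probe of that array that was well above it, unless its own signal was higher, and a fold against it is a bound. A gene that was dim on both arrays of a comparison was left out of it. The named genes were the 6 receptors, the lists of retinoid synthesis, uptake and binding, breakdown, corepressors, coactivators, other RXR partners, known direct targets and cell type markers, and the 5 genes of most similar course. Not every gene of these lists is printed. Of the marker lists not given above, from ES to Day7 neural progenitor genes had 5 of 8 raised and 2 lowered, astroglia 0 of 3 raised and 1 lowered, mesoderm and endoderm 2 of 7 raised and 3 lowered, and housekeeping 1 of 8 raised and 2 lowered, beside 24.8% of all genes raised and 24.4% lowered. The members and lists were chosen with earlier results of these data known. Alternatives were other normalizations, normexp with an offset of 50 on median spot signals (planned on mean signals), other detection flags, filters, floors and probes, and thresholds of 1.5-fold and 4-fold. A comparison of receptor proteins was not run.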

Additional observations from a re-analysis of the deposited data

How the results depend on the processing

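Over the alternatives run, the rise of Rarb passed 4-fold from ES to each later time point, and the fall of Rarg on its 1 probe passed 2-fold from ES to Day4 and Day7. Of 436 changes of a single receptor gene recomputed, 308 moved by less than the scanner error, but many of these could not move. The probes that stand for the genes were well above background on every array, so other detection flags and filters returned the same value. For Rarg and Rxrb, with 1 probe each, the mean over probes did too. Of the rest, 126 moved by more than that error and 2 changes of at least 2-fold turned in sign. These were Rara from ES to Day7 on its other probe (-0.027) and Rxra from Day2 to Day3 without normalization (-0.046). Smaller changes turned more often, so that 17 of the 42 receptor changes took both signs over the alternatives, such as Rxrg from ES to Day4 (-3.07 to 0.14) and Rara from ES to Day4 (-0.40 to 1.04). The counts of receptors changed at least 2-fold were small, and several moved. From ES to Day2, the 2 raised became 1 (Rarb) under the 75th percentile shift, the deposited values, the mean over probes, the other probe and a 4-fold threshold, and the 1 lowered (Rxra) became 0 under the shift, the deposited values, normexp, the ERCC floor, no normalization and 4-fold. From ES to Day3, the 2 raised became 1 (Rarb) under the shift, the deposited values, no normalization, normalization without Day2, the mean over probes, the other probe and 4-fold, and the 0 lowered became 1 (Rxrg) on the other probe and the mean over probes and 2 (Rarg and Rxrb) without normalization. From ES to Day4, the 1 raised became 2 at 1.5-fold and under normexp, and the 1 lowered became 4 without normalization, 2 with the mean over probes and 0 at 4-fold, and was Rxrg in place of Rarg on the other probe. From ES to Day7, the 2 raised became 1 under the shift, the deposited values, no normalization and 4-fold, 3 at 1.5-fold (with Rxrg), and Rarb and Rxrg on the other probe and the mean over probes. The 2 lowered became 3 under the shift and the deposited values (with Rxrb), 1 at 4-fold and under normexp and 0 on the other probe. From Day2 to Day3, the 1 raised became 0 under the shift, the deposited values, the ERCC floor, no normalization and 4-fold and 2 on the other probe, and the 0 lowered became 1 on the other probe, at 1.5-fold and without normalization. From Day3 to Day4, the 0 lowered became 1 without normalization and 2 at 1.5-fold. From Day4 to Day7, the 0 raised became 1 on the other probe and the mean over probes and 2 without normalization, and the 2 lowered became 1 (Rarg) under normexp and the mean over probes, 1 other gene (Rara) on the other probe, and 0 at 4-fold and without normalization. Over the alternatives, the raised on Day2 were 1 to 2 of the synthesis genes, 2 to 4 for uptake and binding, 2 to 3 for breakdown, 1 of the corepressors, 0 to 1 of the coactivators, 1 to 6 of the other RXR partners and 9 to 12 of the known targets, and the lowered were 0 to 3, 0 to 1, 0, 0 to 2, 0 to 1, 0 to 2 and 0 to 1 in the same order. The causes were not tested, apart from those built into an alternative. Of all genes changed at least 2-fold from ES to Day2, 48.7% were raised in the main setting, 74.9% under the 75th percentile shift and 85.4% without normalization, and from Day2 to Day3 62.6%, 25.5% and 3.48%. Without normalization the median of all genes moved by -0.63 on Day3 and -1.06 on Day4 from ES. Rxra, the ES signal of Rarb and the Day3 and Day4 signals of the second probe of Rxrg lay near background, which limits their folds. No paired analysis was possible because there was a single array per time point. For the same reason no replicate could be left out, and with Day7 by itself on slide 2 no fit with a slide term could be made.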

Other observations

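The course of the second probe of Rxrg, low on Day3 and Day4 and high on Day7, was compared with all genes in the same way as the receptors, a comparison chosen after its values were seen. The 5 genes of most similar course were Mapk10 (root mean square difference 0.45 on the log2 scale), Gpr85 (0.51), Dcn (0.55), Frmd3 (0.56) and Serpini1 (0.58). Mapk10, which encodes the neuronal kinase JNK3, read 8.91 in ES, then 9.49, 7.93, 6.90 and 13.09 at the later time points. Dcn, which encodes decorin, a proteoglycan of connective tissue, read 9.08, 9.63, 7.68, 7.34 and 12.55.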
